A study of Mus musculus with 8 samples.

Results

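RNA of the signals that liver secretes in fasting and stress was examined in mice that lack pyruvate carboxylase in hepatocytes. The 9 genes, of 35275 in the count table, were Fgf21, Gdf15, Angptl4, Angptl8, Inhbe, Inhbc, Fst, Lect2 and Rbp4. They were chosen by symbol with earlier results of these data known, and the authors had already reported Fgf21 and Gdf15 as raised. Total liver RNA came from 4 mice of the genotype Pcx L-/- and 4 Pcx f/f controls, and each mouse gave 1 library. All were males of the strain labelled C57BL/6, 9 weeks old, taken after a 24 h fast that ran from afternoon to afternoon. Both groups carry Pcx alleles with a floxed exon 10, derived from C57BL/6NTac-Pcx Tm1a mice, and Pcx L-/- mice also carry Albumin-Cre, a transgene that deletes the floxed exon in hepatocytes and leaves the other cells of liver with the gene. Controls were littermates that the sample labels call WT, although their Pcx is floxed.

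Hepatokines are proteins that hepatocytes release into blood to act on other organs or on liver itself. Several of them follow the feeding state, since the nuclear receptor PPARalpha raises Fgf21 and Angptl4 when fatty acids arrive in fasting, whereas insulin raises Angptl8 after a meal. Others follow cell stress, and Fgf21 and Gdf15 are both known targets of the integrated stress response, in which the transcription factors ATF4 and CHOP are made when translation or mitochondria are disturbed. Pyruvate carboxylase makes oxaloacetate from pyruvate in mitochondria, and the comparison asks how its loss in fasting changes the RNA of these signals.

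Of the 9 transcripts, 3 were higher and 1 was lower in Pcx L-/- liver. Fgf21 and Gdf15 rose 18.8-fold and 15.9-fold from low control levels, and Inhbe rose 2.88-fold. For Fgf21 and Gdf15 the paper prints shrunken DESeq2 log2 fold changes that are smaller than in any setting tried here. Its mean counts for both genes are close to those found here. By qPCR the paper also found Fgf21 induced in fasted liver. Inhbc, the gene next to Inhbe on the chromosome, fell to 0.567 of control. Angptl4, Angptl8, Fst, Lect2 and Rbp4 did not pass the test. All 9 passed the filter on low counts. The test was edgeR's quasi-likelihood F test, its p-values adjusted by Benjamini-Hochberg over 13168 genes, and genes with an adjusted p under 0.05 are called higher or lower. By this rule 27.6% of all genes tested were called, 14.1% higher and 13.5% lower, against 4 of 9 members. The normalized counts of the genotypes did not overlap for the same 4 members, and this held for 27.6% of all genes tested. The median log2 fold change was 0.68 over the 9 members and -0.01 over all genes tested.

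Promoter sequence is shown for the stress hormone Fgf21, the neighbours Inhbe and Inhbc, and Angptl8. The windows of Gdf15, which changed nearly as much as Fgf21, were searched but are not printed. The 250 bases before the transcription start were read from RefSeq on GRCm38.p6, 5′ to 3′ on the strand of the gene. Such a window was found for 7 of the 9 members, and Gdf15 and Rbp4 have 2 each. Capitals mark the letters TGATGNAA on either strand, the core of the composite element that ATF4 and its C/EBP partners bind.
Fgf21, chr7:45615491-45615740, minus strand: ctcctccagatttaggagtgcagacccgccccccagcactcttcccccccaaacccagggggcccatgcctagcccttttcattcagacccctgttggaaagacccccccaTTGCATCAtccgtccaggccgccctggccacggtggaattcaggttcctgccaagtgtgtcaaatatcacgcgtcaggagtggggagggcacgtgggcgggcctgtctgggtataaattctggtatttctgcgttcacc
Angptl8, chr9:21835260-21835509, plus strand: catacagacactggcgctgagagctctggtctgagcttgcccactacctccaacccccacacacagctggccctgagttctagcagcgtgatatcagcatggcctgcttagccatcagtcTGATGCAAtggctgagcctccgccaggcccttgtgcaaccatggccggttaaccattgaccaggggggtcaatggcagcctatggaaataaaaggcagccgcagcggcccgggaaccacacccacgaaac
Inhbe, chr10:127351849-127352098, minus strand: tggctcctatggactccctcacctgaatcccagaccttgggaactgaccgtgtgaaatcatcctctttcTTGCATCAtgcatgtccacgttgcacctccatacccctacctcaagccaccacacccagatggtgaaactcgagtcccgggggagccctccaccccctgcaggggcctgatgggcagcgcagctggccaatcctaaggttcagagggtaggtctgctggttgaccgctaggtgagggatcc
Inhbc, chr10:127370549-127370798, minus strand: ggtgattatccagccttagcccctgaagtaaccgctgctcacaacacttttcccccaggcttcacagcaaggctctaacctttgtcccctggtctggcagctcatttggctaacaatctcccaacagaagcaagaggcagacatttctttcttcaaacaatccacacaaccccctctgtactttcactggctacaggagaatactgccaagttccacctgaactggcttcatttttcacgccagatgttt
The letters stood from -139 to -132 in Fgf21, from -181 to -174 in Inhbe and from -130 to -123 in Angptl8, counted from the start site. In these 3 windows the free base was C, so that the run read TGATGCAA or its reverse complement. Of 32851 promoter windows of that length in RefSeq, 3.45% held TGATGNAA and 0.791% held TGATGCAA. TGATGNAA was also present in the outer window of Rbp4, from -76 to -69 with A at the free base, and in neither window of Gdf15 nor in those of Inhbc and Lect2. The E-box CACGTG, which is its own reverse complement, was in Fgf21 from -50 to -45 and in the inner window of Gdf15 from -83 to -78, against 6.02% of windows. The TATA box TATAAA, searched on both strands, was in Fgf21 and in the inner window of Rbp4, both from -28 to -23, against 12.4%. A direct repeat of AGGTCA with 1 base between, the form that PPARalpha binds with RXR, was in none of the 9 windows and in 0.0335% of all. None of these motifs overlapped another in the printed windows. The printed windows hold all 3 matches to TGATGCAA among the members, so they do not stand for the 9 windows. The match to TGATGCAA was noticed in the sequences before its share was counted, and the presence of letters does not show a bound site. The RefSeq start of Inhbe lies within the longer Inhbe gene of GENCODE M21, so its window is upstream of one annotated start and downstream of another.

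Depth was between 12016242 and 20023108 reads on genes per library. Control replicate 4 was the shallowest, and Pcx L-/- replicate 4 was the shallowest of its genotype with 15062963. The deleted gene went with the labels in all 8 mice, with a normalized Pcx count of 18936 ± 3249 (SD, n = 4) in controls and 681 ± 89.9 (SD, n = 4) in Pcx L-/- liver. TMM scaling factors, which correct for RNA composition, were 0.833 to 0.942 in controls and 0.970 to 1.17 in Pcx L-/- mice. The genotypes did not overlap in them, but Pcx L-/- replicate 1, at 0.970, lay close to the highest control. Pcx L-/- replicates 2 to 4 were at 1.14 to 1.17. The 10 hepatocyte markers measured had a summed level of 46900 to 51400 FPKM in controls and 33800 to 42500 in Pcx L-/- liver, and 3 of them were lower and 0 higher by the test. Albumin RNA made up most of this sum, with a mean of 33000 FPKM in controls and 25900 in Pcx L-/- liver. In bulk liver, fewer cells of a type and less RNA per cell cannot be told apart. Red blood cell markers summed to 5340 FPKM in Pcx L-/- replicate 1 and to 317 to 1410 in the other 7 libraries. Of 11 Kupffer cell markers 1 was higher and 0 lower, of 10 endothelial and 11 stellate markers none passed, and of 7 cholangiocyte markers tested 1 was lower and 0 higher. The same test applied, and the part of these shifts in the members' values was not tested. Neutrophil markers summed to 0.502 to 4.76 FPKM and adipose markers to 4.93 to 15.5, with Ly6g, Lep and Retn at 0 reads in every library.

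Fgf21, a hormone that acts on brain and fat through FGF receptors and the coreceptor beta-Klotho, showed the largest change of the 9. The gene (ENSMUSG00000030827) lies at chr7:45613886-45615490 of GRCm38 on the minus strand. Its normalized counts, which are reads divided by the TMM-scaled library size and brought to a common size, were 14.6, 45.5, 49.4 and 13.6 in control replicates 1 to 4. They were 316, 562, 337 and 1164 in Pcx L-/- replicates 1 to 4. Every Pcx L-/- mouse was above every control, and the lowest of them had 6.39 times the count of the highest control. The log2 fold change was 4.23 ± 0.52 (SE, adjusted p = 7.35e-04), with a 95% interval from 8.53-fold to 41.4-fold. Between 8 and 46 reads stood behind each control value, so the low base of this ratio is known poorly. The spread was wide in both genotypes, with a highest mouse 3.64 times the lowest in controls and 3.68 times in Pcx L-/- mice. Numbers in the sample labels, taken here as mouse numbers, were grouped for this comparison into a 500 and an 800 series. The labels do not say what the numbers stand for. All Pcx L-/- mice but replicate 1 are in the 800 series. Within the 500 series, 1 Pcx L-/- mouse differed from 2 controls by 3.56 log2 units, and within the 800 series 3 differed from 2 by 4.48.

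Gdf15, a stress cytokine that lowers food intake through its receptor in the hindbrain, changed by a similar amount. The gene (ENSMUSG00000038508) lies at chr8:70629393-70632456 on the minus strand. Gdf15 normalized counts were 41.9, 41.2, 61.3 and 6.79 in the 4 controls and 289, 782, 544 and 923 in the 4 Pcx L-/- mice. Again no mouse of either genotype reached the other's range. Control replicate 4 stood far below its group with 4 reads, and the other 3 controls lay close together. Its log2 fold change came to 3.99 ± 0.44 (SE, adjusted p = 4.54e-04), a 15.9-fold rise with a 95% interval from 8.11-fold to 31.2-fold. It ranged from 3.72 to 4.29 with single mice left out, control replicate 4 among them. The differences within the 500 and 800 series were 2.77 and 5.06 log2 units, and control replicate 4 is 1 of the 2 controls of the 800 series. Pcx L-/- mice fell in the same order for Gdf15 as for Fgf21, with replicate 1 lowest, then 3, then 2, and replicate 4 highest. Pcx L-/- replicate 1, lowest for both hormones, is also the library with the most red blood cell RNA. The same mouse was the highest of its genotype for Inhbc, Lect2 and Rbp4, and the part of red blood cell RNA was not tested.

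**Figure D1:**
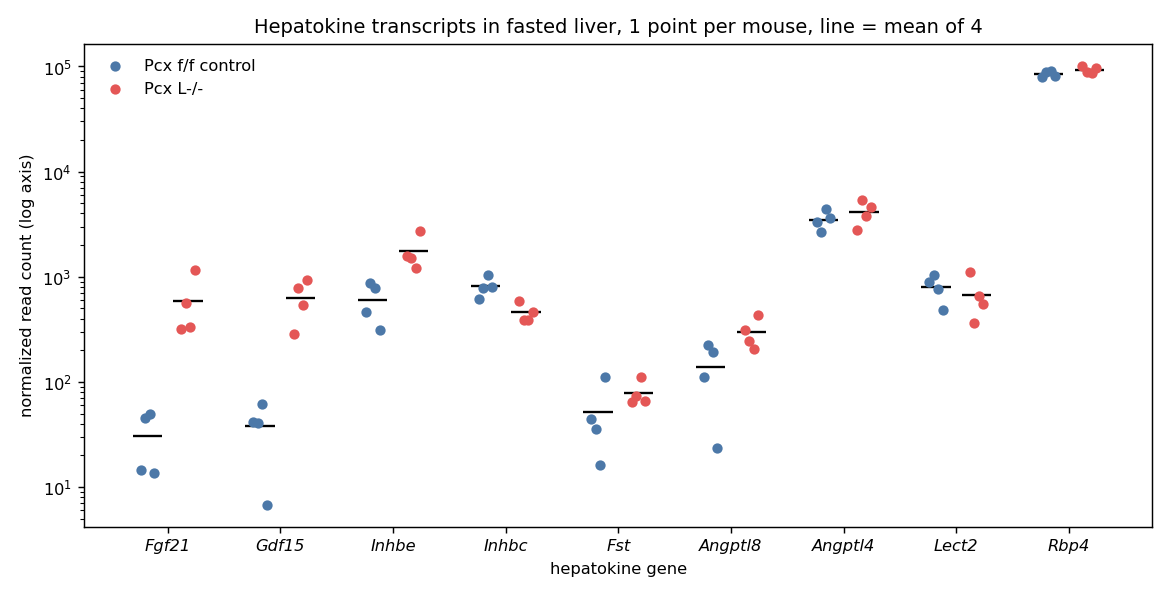
Normalized read counts on a log axis for the 9 hepatokine genes, with 1 point per mouse, Pcx f/f controls in blue, Pcx L-/- mice in red and the mean of 4 as a line. The genotypes are apart for Fgf21, Gdf15, Inhbe and Inhbc and overlap for the other 5 genes, and controls spread from 6.79 to 61.3 for Gdf15.

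The activin genes of liver moved in opposite directions. Inhbe and Inhbc encode the beta subunits of activins E and C, ligands of the TGF-beta family that are made almost only in liver. They are neighbours on the minus strand, Inhbe (ENSMUSG00000047492) at chr10:127348857-127354411 and Inhbc (ENSMUSG00000025405) at chr10:127356322-127370431, with 1910 bases between them. An antisense gene overlaps both in GENCODE M21 but is not a row of the count table, and whether counting used strand is not stated in the sources at hand, so reads from it could not be told apart. Inhbe normalized counts were 462, 872, 787 and 311 in controls and 1591, 1517, 1226 and 2697 in Pcx L-/- mice. The 4 Pcx L-/- mice were all above the controls, with replicate 4 well above the other 3. This gave a log2 fold change of 1.53 ± 0.32 (SE, adjusted p = 0.00627), or 2.88-fold with a 95% interval from 1.77-fold to 4.68-fold.

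Inhbc normalized counts were 614, 788, 1044 and 796 in controls and 594, 390, 388 and 465 in Pcx L-/- mice. The 4 Pcx L-/- mice were below the controls, but replicate 1 came close to the lowest control. The log2 fold change was -0.82 ± 0.18 (SE, adjusted p = 0.00763), with a 95% interval from 0.431 to 0.744 of control. Within the 500 series, where replicate 1 is the sole Pcx L-/- mouse, the difference was -0.23 log2 units, and within the 800 series it was -1.14. In the deposited FPKM, which are scaled to library totals and not by TMM, the genotypes touch, since Pcx L-/- replicate 1 had 17.3 FPKM and control replicate 1 had 17.1. The call was lost when all genes above 0 entered a limma test of log2(FPKM + 1), at -0.50 (adjusted p = 0.0571). Hepatocyte markers were lower in summed level, with 3 of 10 lower by the test, and their part in the values of Inhbc and Inhbe was not tested.

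Per deposited length, Inhbe went from the smaller to the larger of the pair in mean level. Mean Inhbe was 15.4 FPKM in controls and 53.7 in Pcx L-/- liver, and mean Inhbc was 22 and 15.0. Inhbe held 40.9%, 50.5%, 41.0% and 26.4% of their summed FPKM in the 4 controls. In Pcx L-/- mice it held 71.1%, 78.2%, 74.4% and 84.2%. The means were 39.7% ± 9.92 and 77.0% ± 5.61 (SD, n = 4 each). With the exon lengths of GENCODE M21, where Inhbe is 5319 bases and not the 2135 behind the deposited FPKM, the means were 20.4% and 56.3%, and Inhbe stayed just under Inhbc in Pcx L-/- replicate 1, at 48.3%. This choice of lengths was tried after the data were seen, and it lowers the share in both genotypes. The log2 ratio of Inhbe to Inhbc was -0.62 ± 0.62 (SD, n = 4) in controls and 1.77 ± 0.48 (SD, n = 4) in Pcx L-/- mice, a difference of 2.39 with no overlap. An exact two-sided permutation test gave p = 0.029, the smallest that 4 mice against 4 allow, and adjustment over the 5 ratios examined gave 0.0714.

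**Figure D2:**
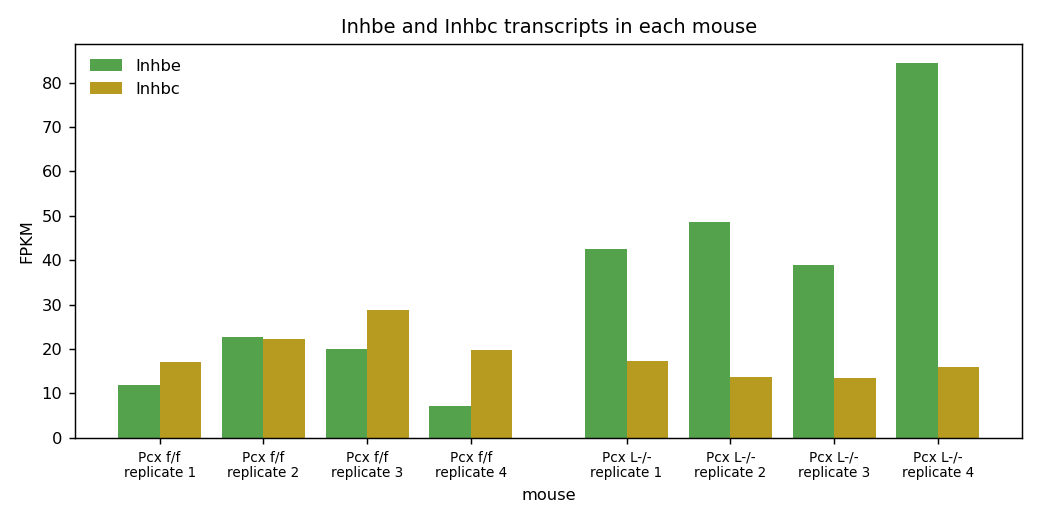
FPKM of Inhbe in green and Inhbc in ochre, as deposited, in each of the 8 mice. Inhbe is the taller bar in all 4 Pcx L-/- mice, reaching 84.5 in replicate 4, and in 1 of 4 controls.

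Fst encodes follistatin, a secreted protein that binds activins and keeps them from their receptors. The gene (ENSMUSG00000021765) lies at chr13:114452290-114458951 on the minus strand and overlaps an antisense gene that is not in the table. Fst normalized counts were 44.6, 35.8, 16.1 and 110 in controls and 65.1, 73.3, 110 and 66.5 in Pcx L-/- mice. Of the Pcx L-/- mice 3 lay close together, and control replicate 4 came level with the highest of them. Fst had a log2 fold change of 0.68 ± 0.44 (SE, adjusted p = 0.283). Without control replicate 4 it was 1.28 (adjusted p = 0.0204), so this mouse decided whether the gene passed. The log2 ratio of Fst to Inhbe was -3.74 ± 1.66 in controls and -4.51 ± 0.757 in Pcx L-/- mice (SD, n = 4 each), with overlap, a difference of -0.78 and an exact permutation p of 0.429. That difference was -0.06 without control replicate 4.

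Angptl4 and Angptl8 encode inhibitors of lipoprotein lipase, the enzyme that breaks down triglyceride of lipoproteins in blood. Angptl4 acts mainly in the fasted state and Angptl8 in the fed state. Angptl8 (ENSMUSG00000047822) lies at chr9:21835510-21837347 on the plus strand, inside Dock6 on the other strand, with which it shares no exon base. Angptl8 normalized counts were 111, 223, 191 and 23.8 in controls and 313, 246, 205 and 430 in Pcx L-/- mice. Of the Pcx L-/- mice 3 were above every control, and replicate 3 lay within the control range. The log2 fold change was 1.08 ± 0.44 (SE, 95% interval 0.12 to 2.05), and it missed the threshold with an adjusted p of 0.0901. Angptl8 passed under 4 other settings, with 1.34 on library size alone (adjusted p = 0.0327), 1.10 with no filter on low counts (0.0439), and 1.53 and 1.73 by limma on log2(FPKM + 1) and log2(FPKM + 0.1) (0.0343 and 0.0435). Library totals in place of TMM, on which FPKM also rest, raise the median of all genes tested by 0.28, and the limma settings raise it by 0.18 and 0.27. Relative to that shift 1.06 of the 1.34 remained.

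Angptl4 (ENSMUSG00000002289, chr17:33773750-33781830, minus strand) had a high level in all 8 mice. Angptl4 normalized counts were 3292, 2692, 4389 and 3625 in controls and 2809, 5393, 3795 and 4653 in Pcx L-/- mice. The groups overlapped widely, with 2 Pcx L-/- mice above every control and replicate 1 below 3 of them. The log2 fold change was 0.25 ± 0.21 (SE, adjusted p = 0.399), with a 95% interval from 0.87-fold to 1.63-fold. It was 0.10 without Pcx L-/- replicate 2 and 0.40 without replicate 1.

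Lect2, a leukocyte chemotactic factor of hepatocytes that also acts on muscle, showed no shift past the spread between mice. The gene (ENSMUSG00000021539) lies at chr13:56542464-56548502 on the minus strand. Lect2 normalized counts were 886, 1039, 773 and 487 in controls and 1114, 366, 660 and 550 in Pcx L-/- mice. Both the highest and the lowest of the 8 values were in Pcx L-/- mice. Lect2 had a log2 fold change of -0.25 ± 0.31 (SE, adjusted p = 0.586), with a 95% interval from 0.528-fold to 1.34-fold. Without Pcx L-/- replicate 1 it was -0.61 (adjusted p = 0.0827), and without replicate 2 it was -0.04.

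Rbp4 encodes retinol-binding protein, which carries vitamin A from liver bound to transthyretin, and it was the most abundant of the 9 by far. The gene (ENSMUSG00000024990) lies at chr19:38116629-38125281 on the minus strand. Rbp4 normalized counts were 78958, 88647, 89832 and 80771 in controls and 101150, 89110, 87315 and 96339 in Pcx L-/- mice. Pcx L-/- replicates 1 and 4 were above all controls and the other 2 were not. The log2 fold change was 0.14 ± 0.15 (SE, adjusted p = 0.508), with a 95% interval from 0.882-fold to 1.39-fold. On library size alone it was 0.42 (adjusted p = 0.0133), or 0.14 above the shift of the median gene. In FPKM, which carry the same shift, Rbp4 was 3636 ± 368 in controls and 4880 ± 232 in Pcx L-/- mice (SD, n = 4 each). The log2 ratio of Rbp4 to Ttr, the transthyretin gene, was 0.52 ± 0.40 in controls and 1.11 ± 0.38 in Pcx L-/- mice (SD, n = 4 each), with overlap, and the exact permutation p was 0.0571 (adjusted 0.0952).

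**Figure D3:**
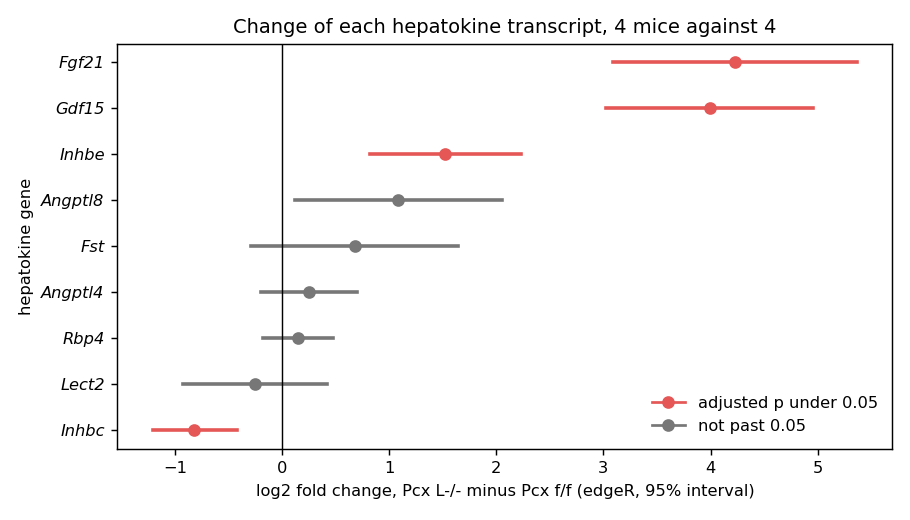
Log2 fold change of each of the 9 genes in Pcx L-/- against Pcx f/f liver by edgeR, with 95% intervals, in red where the adjusted p was under 0.05. Fgf21 and Gdf15 stand apart near 4, Inhbe is at 1.53, Inhbc at -0.82, and the interval of Angptl8 begins at 0.12 although its adjusted p misses the threshold.

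The order of the 9 levels per length changed between genotypes. In control liver, mean FPKM ran from Rbp4 at 3636 through Angptl4 at 61.1, Lect2 at 49.0, Inhbc at 22, Inhbe at 15.4, Angptl8 at 8.68, Fgf21 at 1.79 and Gdf15 at 1.33 to Fst at 1.15. Rbp4 alone was clear of its neighbour, and every other adjoining pair overlapped between mice. In Pcx L-/- liver, Inhbe at 53.7 FPKM, Fgf21 at 42.3 and Gdf15 at 27.3 stood close to Lect2 at 48.6, and Inhbc at 15.0 came after Angptl8 at 22.4. There, Rbp4 was again separate from Angptl4 at 90.0, and Inhbc from Fst at 2.21. The ranges of all other adjoining pairs overlapped. With the exon lengths of GENCODE M21, tried after the data were seen, mean Inhbe was 6.18 FPKM in controls and 21.5 in Pcx L-/- liver, after Angptl8 at 8.67 and 22.4, so its place in the order depends on the gene model.

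Spread between mice differed widely among the 9 genes. The SD of log2 CPM (TMM-scaled counts on a log scale) among controls was 1.43 for Angptl8, 1.27 for Gdf15, 1.08 for Fst and 0.94 for Fgf21, where the median of all genes tested was 0.234. An SD that large among controls was found in 0.258%, 0.463%, 1.16% and 2.04% of genes tested, respectively. Rbp4 was the steadiest, with an SD of 0.09 in controls and 0.10 in Pcx L-/- mice. Among Pcx L-/- mice the SD was 0.87 for Fgf21 and 0.74 for Gdf15, and it was 0.46 for Angptl8 and 0.35 for Fst, against a median of 0.200. Genes with few reads vary more by counting alone, and the values were not adjusted for level.

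The same mice stood out in several genes. Control replicate 4 was the lowest control for Fgf21, Gdf15, Inhbe, Angptl8 and Lect2 and the highest for Fst. Pcx L-/- replicate 4 was the highest of its genotype for Fgf21, Gdf15, Inhbe and Angptl8. Both are the shallowest libraries of their genotype. They deviate in opposite directions for Fgf21, Gdf15, Inhbe and Angptl8. For Lect2 both lie below their genotype mean and for Angptl4 both lie above it, and the part of depth was not tested. Inhbe and Angptl8 ranked the mice alike in both genotypes, with replicates 4, 1, 3, 2 from low to high in controls and 3, 2, 1, 4 in Pcx L-/- mice. On the log2(normalized count + 1) scale, control replicate 4 differed from its genotype mean by -1.97 for Gdf15 and by -2.08 for Angptl8. These orders rest on 4 mice per genotype and are given as a description.

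**Figure D4:**
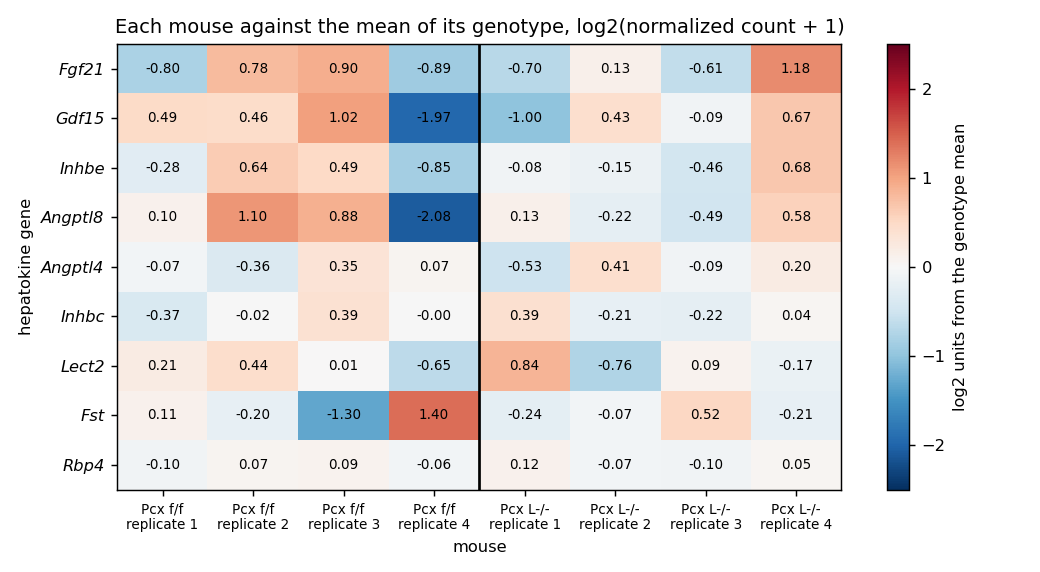
Difference of each mouse from the mean of its genotype on the log2(normalized count + 1) scale, for 9 genes in rows and 8 mice in columns, with red above and blue below the mean. Control replicate 4 is low for Fgf21, Gdf15, Inhbe, Angptl8 and Lect2 and 1.40 above its mean for Fst, and Pcx L-/- replicate 4 is above its mean for the first 4 of these.

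By Pearson's r of log2 CPM over the 8 libraries, the 3 genes most like each member were as follows. Fgf21 was nearest to Pter (r = 0.992), Txndc12 and Rheb (0.990 each), and Gdf15 to Taf1d and Cdnf (0.991 each) and 1110038F14Rik (0.990). For Inhbe they were Zwint (0.989), Grpel1 and Nptn (0.983 each), and for Inhbc Szrd1 (0.981), Celsr2 and Cecr2 (0.978 each). Angptl8 was most like Rnf34 (0.991), Gm10180 (0.989) and Asnsd1 (0.986), and Angptl4 most like Ptbp1 (0.98), Apba3 (0.969) and Borcs5 (0.963). The nearest of Fst were BC048403 (0.950), Csf2rb (0.944) and Gm13456 (0.942), those of Lect2 Skida1 (0.972), Stub1 (0.971) and Gm20319 (0.962), and those of Rbp4 Foxa2 (0.969), Isca1 (0.953) and Psmb2 (0.939). The points share genotype and library, so a high r comes readily for any gene that differs between genotypes, and no other member was among them.

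Receptors, coreceptors and extracellular partners of the 9 proteins were looked at in liver itself, although most of these hormones act mainly elsewhere. Of 17 such genes tested, 1 was higher and 3 were lower, with a median log2 fold change of -0.28. Stra6l, a receptor that takes up Rbp4-bound retinol in liver, rose by 0.75 ± 0.14 (SE, adjusted p = 0.00423) from 2529 to 4262 normalized counts. Fgfr4, the main FGF receptor of hepatocytes, fell by 1.22 on the log2 scale (SE 0.20, adjusted p = 0.00219), from 845.8 to 364.1 normalized counts. Met, a receptor to which Lect2 binds, was at -0.50 (adjusted p = 0.0197), and Fgfr2 was at -0.41 (adjusted p = 0.0357). Both of these calls were lost with Pcx L-/- replicate 2, 3 or 4 left out, and Fgfr2 lost it without Pcx L-/- replicate 1 and without control replicate 1 or 3 too. On library size alone Met was at -0.22 and Fgfr2 at -0.13, which relative to the shift of the median gene are -0.50 and -0.41. Klb, the coreceptor of Fgf21, had 784.9 ± 119 normalized counts in controls and 973 ± 97.2 in Pcx L-/- mice (SD, n = 4 each). Its log2 fold change of 0.31 (adjusted p = 0.0885) passed without control replicate 4 (0.42, adjusted p = 0.0178) and without Pcx L-/- replicate 1 (0.38, adjusted p = 0.0291). Fgfr1, with which Fgf21 signals in fat, was at -0.26 (adjusted p = 0.525), and -0.63 (adjusted p = 0.0235) without Pcx L-/- replicate 1, and Fgfr3 was at -0.42 (adjusted p = 0.0647), with -0.52 (adjusted p = 0.0186) without control replicate 4 and -0.55 (adjusted p = 0.0101) without Pcx L-/- replicate 1. Lpl, the lipase held back by the Angptl proteins, had a log2 fold change of 0.40 (adjusted p = 0.232), and Ttr one of -0.43 (adjusted p = 0.261), or -0.70 (adjusted p = 0.0223) without Pcx L-/- replicate 1. The activin receptors Acvr2a and Acvr1b had mean levels of 4.56 and 6.56 FPKM in control liver. Gfral, the receptor of Gdf15, had 0 reads in all 8 libraries, and its partner Ret, Acvr1c, Stra6 and Cd209a had too few to test. The count of lower genes was 1 without Pcx L-/- replicate 2 or 4 and 7 without replicate 1, and that of higher genes was 2 with control replicate 4 or Pcx L-/- replicate 1 left out.

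Among 14 tested relatives of the members in the same families, 1 was higher and 1 lower. Fgf1, a locally acting FGF, fell by 1.77 on the log2 scale (SE 0.38, adjusted p = 0.00691), from 3313 to 971.8 normalized counts. Without Pcx L-/- replicate 1 its log2 fold change was -2.46. Angptl6 rose by 0.94 (SE 0.24, adjusted p = 0.0153), and without Pcx L-/- replicate 3 it was at 0.79 (adjusted p = 0.0507). The remaining named relatives were not past the threshold, with Angptl7 at 0.20 and Inhbb at 0.08, whose signs change when single mice are left out, and Bmp4 at -0.41 and Fstl1 at -0.39. The median over the 14 was -0.18. Without Pcx L-/- replicate 3, 0 were higher and 2 lower.

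Genes listed with other secreted liver factors were mostly not raised. Of 35 tested, 3 were higher and 14 lower, with a median of -0.39. The list, called liver hormones below, is broad. Its lower genes include the growth hormone receptor, a membrane peptidase and an enzyme of the endoplasmic reticulum, besides general plasma proteins. Enho, the gene of the peptide adropin, fell by 2.49 on the log2 scale (SE 0.38, adjusted p = 0.00136), Igf1, the main growth factor that liver puts out under growth hormone, by 1.05 (adjusted p = 0.0133), and Hgfac, the activator of hepatocyte growth factor, by 0.98 (adjusted p = 0.00104). Lcn2, an iron-scavenging acute-phase protein also found in neutrophils, rose by 1.67 (SE 0.38, adjusted p = 0.00873). Summed neutrophil markers were low, at 0.502 to 2.46 FPKM in controls and 2.01 to 4.76 in Pcx L-/- liver, with overlap. Single markers went both ways, and the 1 of 7 with enough reads to test did not pass. Their part in the level of Lcn2 was not tested. Hamp, which encodes the iron hormone hepcidin, was at 1.03 (adjusted p = 0.0368) and did not pass with replicates 1 or 3 of the controls or 2, 3 or 4 of the Pcx L-/- mice left out, where adjusted p was 0.0623 to 0.09. Without Pcx L-/- replicate 1 Enho was at -3.08. Gpnmb was at 1.0 (adjusted p = 0.122), and at 1.29 (adjusted p = 0.0097) without Pcx L-/- replicate 1. The count of higher genes was 1 with control replicate 1 or Pcx L-/- replicates 2 or 4 left out and 5 without Pcx L-/- replicate 1, and that of lower genes was 9 without Pcx L-/- replicate 3. Summed hepatocyte markers were lower as well, and their part was not tested.

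Genes of the integrated stress response, of which Fgf21 and Gdf15 are known targets but which were listed without them, were largely higher. Of 28 tested, 16 rose and 2 fell, with a median log2 fold change of 0.69. Nupr1, a stress-induced chromatin protein, rose by 7.19 ± 0.64 (SE, adjusted p = 1.59e-04), Psat1 of serine synthesis by 4.48 ± 0.31 (SE, adjusted p = 2.93e-05), and Trib3, a pseudokinase that restrains ATF4, by 4.17 ± 0.22 (SE, adjusted p = 4.01e-06). Shmt2 at -0.57 (adjusted p = 0.0243) and Herpud1 at -0.55 (adjusted p = 0.0262) were lower, but neither call held after leaving out 1 or 3 of the controls, or 2, 3 or 4 of the Pcx L-/- mice, by replicate number, each of which left 0 lower genes. Cth was at -0.44 (adjusted p = 0.241), and -0.79 (adjusted p = 0.00265) without Pcx L-/- replicate 1.

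PPARalpha targets, listed without Fgf21 and Angptl4, did not move as 1 group. Of 31 tested, 5 were higher and 12 lower, with a median of -0.41. Cidec (3.45 ± 0.22, SE, adjusted p = 2.18e-05) and Plin2 (1.47 ± 0.23, SE, adjusted p = 0.00152), both lipid droplet proteins, and the thioesterase Acot2 (2.65 ± 0.29, SE, adjusted p = 4.2e-04) rose. Acsl1, which activates fatty acids, was lower at -1.01 (adjusted p = 0.00672), and Vnn1 at -1.11 (adjusted p = 0.0119). The count of lower genes was 6 with control replicate 3, or 2 or 3 of the Pcx L-/- mice, left out and 5 without Pcx L-/- replicate 4. On library size alone, which shifts the median gene, it was also 5.

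Genes that insulin and feeding raise in liver, as they raise Angptl8, were split as well, with 3 of 20 higher and 7 lower and a median of -0.28. Elovl6 (0.59, adjusted p = 0.0144), Me1 (0.73, adjusted p = 0.0113) and Pklr (0.84, adjusted p = 0.0285), enzymes of fatty acid elongation, NADPH supply and glycolysis, were higher, Pklr with adjusted p of 0.0568 to 0.0891 in fits that omit replicate 1, 2 or 3 of the controls or 2, 3 or 4 of the Pcx L-/- mice. Srebf1, the factor that drives lipogenic genes, was lower at -1.38 (adjusted p = 0.00451), Insig1, which holds it back, at -1.17 (adjusted p = 0.00451), and Lpin1 at -1.53 (adjusted p = 0.0234). Lpin1 did not pass when replicate 3 or 4 of either genotype was omitted (adjusted p of 0.0521 to 0.073), and it is raised by fasting signals too.

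Of 20 genes that glucagon, glucocorticoid and FOXO1 raise in fasting, 1 was higher and 7 were lower, with a median of -0.42. Pdk4, the kinase that shuts pyruvate dehydrogenase in fasting, was at 1.31 (adjusted p = 0.0496) and lost its call when any single mouse other than Pcx L-/- replicate 1 was left out, down to 0.66 (adjusted p = 0.169) without Pcx L-/- replicate 2. Igfbp1 was at 0.98 (adjusted p = 0.16), and at 1.71 (adjusted p = 0.00992) without control replicate 4, the mouse that was lowest for Angptl8 and Fgf21. Nr4a1 was at 1.05 (adjusted p = 0.119), at 1.34 (adjusted p = 0.0322) without Pcx L-/- replicate 2 and at 0.59 (adjusted p = 0.372) without replicate 3. Fkbp5 (-0.91, adjusted p = 0.0163) and Sik1 (-1.02, adjusted p = 0.0253) were lower, but Fkbp5 did not pass without replicate 3 of either genotype or Pcx L-/- replicate 4 (0.0519 to 0.0524), nor Sik1 when replicate 1 or 4 of the controls or 2 or 4 of the Pcx L-/- mice was omitted (0.058 to 0.0805). The count of lower genes was 4 and 3 without control replicates 1 and 3, and 3, 2 and 1 with Pcx L-/- replicates 2, 3 and 4 left out in turn.

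Around Rbp4, 19 genes of retinoid synthesis, storage and transport were tested, of which 2 were higher and 2 lower, with a median of -0.17. Besides Stra6l, Dhrs9, a retinol dehydrogenase, rose by 2.03 ± 0.34 (SE, adjusted p = 0.00226) from 9.57 to 39.0 normalized counts. The retinol dehydrogenase Rdh16 was lower at -0.76 (adjusted p = 0.00972), and the carotenoid-cleaving Bco2 at -0.84 (adjusted p = 0.0138). Its relative Bco1 was at 0.43 (adjusted p = 0.157), and the receptor Rarb at -0.69 (adjusted p = 0.0704). Without Pcx L-/- replicate 1, 4 were higher and 6 lower, and Bco1 (0.57, adjusted p = 0.0282) and Rarb (-0.97, adjusted p = 0.00655) passed.

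**Figure D5:**
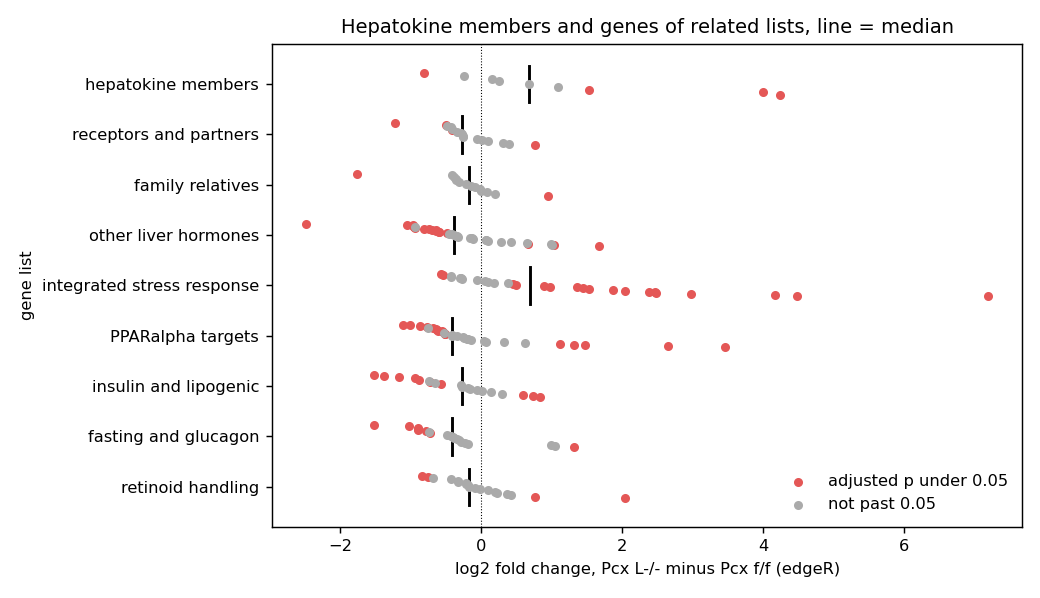
Log2 fold change of each tested gene in the 9 hepatokine genes and 8 related lists, in red where the adjusted p was under 0.05, with a black line at the median of each list. The stress response list has its median at 0.69, that of the hepatokine genes is at 0.68, and the other 7 medians lie between -0.42 and -0.17.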

How the data were processed

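Genotypes and replicate numbers came from the sample labels. The authors extracted total RNA from frozen liver with TRIzol and a column, a company made and sequenced the libraries, and reads were aligned to mm10. The submitters' processing notes name STAR 2.5, HTSeq 0.6.1 and DESeq2. The authors deposited raw read counts per Ensembl gene and FPKM values, and all 142384 FPKM above 0 equal the count divided by 1 length per gene and the library total, within a relative tolerance of 1e-06. Neither strand use nor annotation release was given in the sources used here. Symbols came from GENCODE M21 (GRCm38) and matched 34490 of 35275 identifiers (97.8%).

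The members and lists were chosen with earlier results of these data known. Lists came from general knowledge. Named in the text are all members, the 3 highest and 3 lowest tested genes of each of the 8 related lists, any receptor, the 3 genes most like each member, and Pcx. Counts were tested with edgeR 4.0.16 (R 4.3.3), TMM factors, filterByExpr (minimum count 10, minimum total 15) and genotype alone. SE is the log2 fold change over the square root of F. Log2 CPM (reads scaled to a common library size) used a prior count of 2. Ratios used log2(FPKM + 0.1) and exact permutation (scipy 1.17.1). Alternatives were DESeq2 1.42.0 with and without apeglm 1.24.0, limma 3.58.1 on FPKM, other scalings, no filter, a replicate block, the mouse number series as a covariate, and leaving out single mice. The tests were also run on simulated counts. These had far fewer changed genes than the data and no composition shift like theirs, so the choice of scaling was not checked. Some named genes and 2 of the 5 ratios are not reported here. Proteins, metabolites and fed mice are not analysed here.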

Additional observations from a re-analysis of the deposited data

Results flagged for a closer look

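Of 32 sets of 4 values examined (the normalized counts of the 9 members and Pcx, the 5 ratios and the depth, in each genotype), 1 held a value far from its others. Pcx L-/- replicate 4 had 15062963 reads on genes, where the other 3 Pcx L-/- libraries had 18570311 to 19116431, and its gap was 0.865 of the range, above the critical value for 4 samples at the 95% level. Chance flags about 1 in 20 such sets. This mouse had the highest normalized counts of its genotype for Fgf21, Gdf15, Inhbe and Angptl8. The fit without this mouse is 1 of the 18 alternatives behind the ranges given below, so those ranges are no separate check on it. The part of depth was not tested.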

How the results depend on the processing

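With 4 mice per genotype and 4 to 57 reads behind each control value of Gdf15 and 8 to 46 behind those of Fgf21, the size of their rise is less sure than its direction. Levels of low genes such as Fst are limited in the same way, and 1 control decided its call. Fgf21 (3.69 to 4.55), Gdf15 (3.53 to 4.41) and Inhbe (1.24 to 1.86) stayed higher and past the threshold in all 18 alternatives, and Inhbc kept its sign in all 18 (-0.97 to -0.50) and its call in 17. Angptl4 and Lect2 did not pass in any of the 18. The ratios were tested under 1 alternative, 1 added to FPKM, where none passed, and had no test with a mouse left out. No member changed direction. Each cause was not tested unless a value here shows it.

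The members higher were 5 on library size alone, where Angptl8 was at 1.34 and Rbp4 at 0.42, and the members lower were 0 by limma on log2(FPKM + 1) when every gene above 0 entered, where Inhbc was at -0.50. Angptl8 also passed at 1.10 without the filter and at 1.53 and 1.73 by limma with 1 and 0.1 added to FPKM. With single mice left out, the log2 fold change was 0.77 to 1.40 for Angptl8, 0.36 to 1.28 for Fst, 0.10 to 0.40 for Angptl4, -0.61 to -0.04 for Lect2, -0.97 to -0.67 for Inhbc and 0.10 to 0.18 for Rbp4, and the genes altered numbered 2109 to 4602 against 3632 (2295 without Pcx L-/- replicate 2 and 2109 without replicate 4). The main split of 1855 higher and 1777 lower became 3915 and 870 on library size alone, 3822 and 823 by limma on log2(FPKM + 1), 3779 and 822 with 0.1 added, and 3189 and 637 for all genes above 0. It was 1156 and 953 without Pcx L-/- replicate 4, and lower genes were 1043 and 1097 without replicates 2 and 3. Against the main counts higher and lower, library size alone gave 3 and 1 receptors, 7 higher liver hormones, 0 lower stress response genes, 5 lower PPARalpha targets, and 5, 3 and 6 higher insulin, fasting and retinoid genes. Limma on log2(FPKM + 1) and with 0.1 added both gave 2 and 1 receptors, 5 higher liver hormones, 0 lower stress response genes, 5 lower PPARalpha targets, 5 higher insulin genes, 1 lower fasting gene and 5 higher retinoid genes. For all genes above 0 limma gave 2 and 1 receptors, 2 higher relatives, 8 lower liver hormones, 0 lower stress response genes, 4 lower PPARalpha targets and insulin genes, no fasting gene in either direction and 1 lower retinoid gene. Pdk4, the 1 fasting gene higher, did not pass by DESeq2, with its size factors or with the mouse series as covariate, and that covariate gave 2 lower relatives.

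Values that changed sign, none past the threshold, were those of Angptl7 (-0.0013 without control replicate 4), Inhbb (-0.059 with the mouse series as covariate, and -0.088 to 0.233 with single mice left out, below 0 when replicate 1 or 2 of the controls or Pcx L-/- replicate 4 was omitted), Szrd1 (0.046 on library size, 0.045 by limma with 1 added with or without the filter, 0.047 with 0.1 added) and Stub1 (0.16 on library size, 0.15 by limma with 1 added with or without the filter, 0.16 with 0.1 added). Both of the last follow the shift of the median gene, 0.28 on library size and 0.18 to 0.27 by limma, and relative to it Szrd1 was at -0.23, -0.14 and -0.22 and Stub1 at -0.12, -0.03 and -0.10 on library size and by limma with 1 and 0.1 added. Counts on library size alone carry the same shift. The share of Inhbe became 20.4% and 56.3% with GENCODE M21 lengths, an alternative chosen after seeing the data.

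Replicate numbers are shared between genotypes, but deviations of same-numbered mice correlated at 0.101, -0.131, -0.101 and -0.07, and not every mouse went best with its own number, so the mice were not treated as paired. With a replicate block, 2975 genes were altered, and log2 fold changes were 4.05 for Fgf21, 3.89 for Gdf15, 1.54 for Inhbe, -0.82 for Inhbc and 1.19 for Angptl8, with no member's call changed.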
